A study of Homo sapiens with 16 samples.

Results

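Ketamine given on its own was compared with vehicle in cultured HMC3 cells, with 2 libraries from cells exposed to 400 nM ketamine for 24 h and 2 libraries from cells that received vehicle. These 4 libraries, labelled K_1, K_2, Veh_1 and Veh_2, were chosen by their treatment labels out of 16. HMC3 is an immortalized human microglial cell line, and the cells of every group were at passages about 4 to 6, grew in 6-well plates and were taken through charcoal-stripped serum and then serum-free medium before the drug was added. For contrast, 3 further groups of 2 libraries each received 400 nM (2R,6R)-HNK, 400 nM (2S,6S)-HNK or 0.1 nM estradiol (E2), and another received E2 and ketamine together at those doses, all in medium without serum or phenol red. The remaining groups, of 2 libraries each, received E2 with (2R,6R)-HNK or E2 with (2S,6S)-HNK at the same doses. They are not described here but entered the shared scaling and fit. The labels do not say whether the libraries of a group came from separate cultures. The p-values below therefore rest on the spread between libraries of a group, estimated over all 16. That spread may be technical.

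Ketamine is an anaesthetic that blocks the pore of the NMDA type of glutamate receptor, and at lower doses it is given for its rapid antidepressant action. Hydroxynorketamine (HNK) is what remains after the liver has removed the N-methyl group of ketamine and added a hydroxyl group to its ring, and the (2R,6R) and (2S,6S) forms are mirror images of each other. Microglia are the resident immune cells of the brain, and they respond to type I interferon through the kinases JAK1 and TYK2, which activate STAT2. With IRF9 it forms a complex that binds interferon response elements in the promoters of antiviral genes such as OAS1 and MX1. A separate stress pathway keeps proteins folded, with the factor HSF1 driving the genes of the heat shock chaperones.

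Libraries of the series held 55300614 to 81646165 counts. The 2 ketamine libraries were the deeper ones, with 81646165 and 79389018 counts against 61599174 and 60115434 with vehicle, and 18310 and 18309 genes had a count against 17878 and 17839. Drawing every library down to the smallest one left all 91 genes examined by name on the same side of the threshold. Of 25 microglial markers, 4 reached a mean of 1 CPM (counts per 1000000), and 8 of the 25, CX3CR1, SALL1, C1QA, C1QB, C1QC, FCGR3A, CD163 and MRC1, had no count in any of the 4 libraries, so that the label of a microglial line was not borne out by these markers. Their summed level was 113.1 and 116.3 CPM with vehicle and 103.5 and 103.6 CPM with ketamine. Mesenchymal markers, of which 10 of 14 reached 1 CPM, summed to 24060 and 24660 CPM with vehicle and 23920 and 24080 CPM with ketamine. That level was also reached by 5 of 8 epithelial markers, summing to 564.2 and 552 CPM with vehicle. It was reached by 6 of 10 astrocyte markers (203.1 and 206 CPM with vehicle) and 4 of 10 oligodendrocyte markers (280.9 and 270.4 CPM). Neuronal markers reached it in 3 of 12 cases, endothelial ones in 2 of 8 and lymphoid ones in 0 of 10.

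A large part of the transcriptome differed by small amounts between the ketamine and vehicle libraries. At an adjusted p under 0.05 by edgeR's quasi-likelihood test, 4291 of the 16004 genes tested (26.8%) were higher in the ketamine libraries and 5201 (32.5%) were lower. Changes of at least 1 on the log2 scale, which is a doubling, were uncommon, with 413 genes higher (2.58%) and 157 lower (0.981%). Replicates were close, since the biological coefficient of variation common to all genes was 2.81%. Upper-quartile scaling moved the balance of calls to 5391 higher and 4302 lower, so that 55.6% of calls were rises in place of 45.2%. It moved the median of all genes from -0.02 to 0.06, against which small differences should be read. An exact permutation test of 2 against 2 libraries gives a p of 0.333 at the least, and none was run.

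Differences named below can also appear in the other treatments, which were set against the same 2 vehicle libraries. HSP90AA1, which was 1.37 lower than vehicle with ketamine on the log2 scale, had a difference of -1.14 with (2R,6R)-HNK, of -1.30 with (2S,6S)-HNK and of -1.07 with E2. CHORDC1 was at -1.56 with ketamine and at -1.31, -1.69 and -1.24 with the other treatments in that order. COL8A2 was at 1.41 and at 1.10, 1.53 and 1.08. TTK was at -1.10 and at -0.999, -0.996 and -1.10, and ketamine and E2 did not differ in it by a direct test (adjusted p = 0.997, edgeR). These genes were picked after their values were seen. All 4 comparisons share the vehicle libraries, so a shift of the vehicle libraries themselves and a response common to the treatments cannot be told apart here. The direct contrasts with the other treatments and the comparison within E2, given at the end, take no difference from the vehicle libraries. The vehicle libraries enter them only through the shared scaling and fit.

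The direction of a gene's difference went along with its base composition. Across the 15363 genes with a value, Spearman's rho between the log2 fold change and the GC content of the exons was 0.64, a description across genes that share their libraries. In the tenth of genes lowest in GC the median log2 fold change was -0.52, and in the tenth highest in GC it was 0.34. The 413 genes that rose had a median GC content of 57.7% and the 157 that fell had 40.4%. A correction that fits the trend with GC and exon length in every library brought the rho to 0.04 and left 3593 genes higher (22.5%) and 4047 lower (25.3%), of which 309 (1.93%) and 67 (0.419%) changed by at least 1. Of the 413 rises 361 were still called in the same direction, as were 132 of the 157 falls. The origin of the trend was not tested. Corrected values are given below for some named genes. They are given where the correction changed a call, or reversed a called difference or moved it by more than 1.5 times. Counts of list members after correction, for ketamine against vehicle, are to be read beside the 22.5% and 25.3% of all genes.

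**Figure D1:**
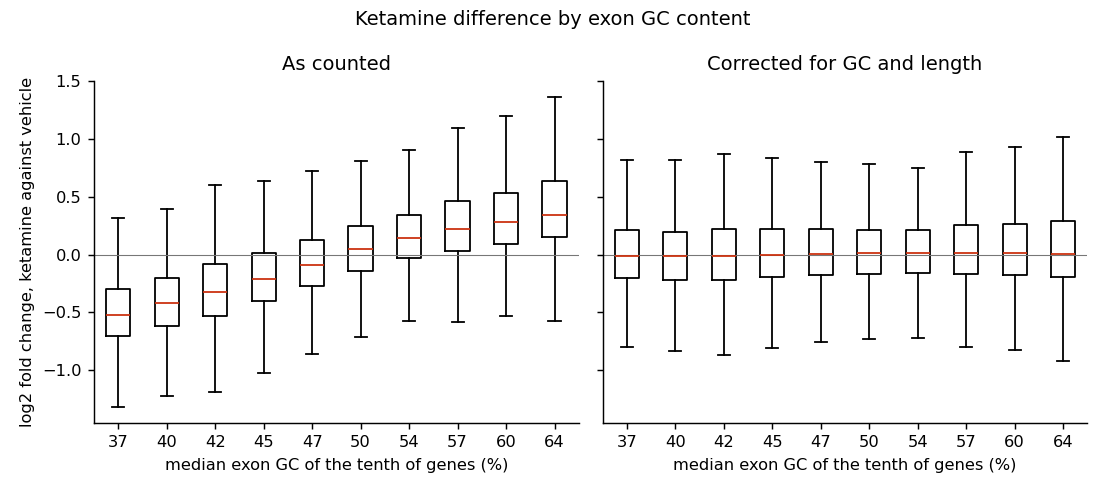
Log2 fold change of ketamine against vehicle (vertical axis) for genes in 10 equal groups by exon GC content (horizontal axis, median GC of the group in percent), as counted on the left and after correction for GC and length on the right. Red lines are medians, boxes span the middle quartiles and whiskers reach the farthest gene within 1.5 box heights, and the medians climb from -0.52 to 0.34 on the left and stay near 0 on the right.

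Most of the strongest rises were in weakly expressed genes. Among the 413 rises, the median level went from 0.364 CPM with vehicle to 1.03 CPM with ketamine, and 256 had a mean under 1 CPM. Among the 157 falls the median level went from 2.95 to 1.09 CPM, and 67 had a mean under 1 CPM. A mean of at least 5 CPM was reached by 66 of the falls and 42 of the rises. Of all 16004 genes tested, 3301 had a mean under 1 CPM. The genes named next are the largest changes at a mean of 5 CPM or more, with no overlap between the libraries of both groups. Such a lack of overlap was common, with 5927 of the 16004 genes higher in both ketamine libraries and 6586 lower in both.

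Of these, the greatest rise was in CPZ, which encodes carboxypeptidase Z, a secreted enzyme that binds Wnt proteins (hg19, chr4:8594387-8621486). It stood at 4.53 and 4.01 CPM with vehicle and at 14.4 and 13.7 CPM with ketamine, a log2 fold change of 1.72 (SE 0.09, n = 2 each, adjusted p = 1.51e-21, edgeR). That its groups do not overlap was required by the rule that picked it. Of the exon bases of CPZ, 58.4% also belong to GPR78 on the same strand, so part of its reads may be shared. CEBPD, a transcription factor induced by cytokines and STAT3, was at 4.74 and 4.60 CPM with vehicle and at 15.2 and 14.1 CPM with ketamine (log2 fold change 1.65, SE 0.08). YPEL1 went from 5.82 and 5.64 to 16.5 and 16.6 CPM (1.53, SE 0.08). It shares 53% of its exon bases with PPIL2 on the other strand, and whether the counting used strand is not given in the sources used here. PPIL2 itself was at a mean of 62.4 CPM with vehicle and 65.8 CPM with ketamine.

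APOE, the apolipoprotein that carries cholesterol between brain cells, was at 3.12 and 3.02 CPM with vehicle and 8.86 and 8.81 CPM with ketamine, a log2 fold change of 1.52 (SE 0.11, adjusted p = 1.76e-16, edgeR). C1R, the protease that starts the classical complement cascade, rose from 3.86 and 3.99 to 10.6 and 11.7 CPM (1.50, SE 0.10). PTGIS, which makes prostacyclin, rose from 3.74 CPM in each vehicle library to 10.9 and 9.89 CPM (1.47, SE 0.11). The lack of overlap between the groups was part of the rule that picked these genes. CDK18, a kinase of the cyclin-dependent family, went from 11.1 and 10.5 to 29.1 and 29.4 CPM (1.44), and COL8A2, a chain of collagen VIII, from 10.4 and 11.5 to 28.8 and 29.5 CPM (1.41). The remaining rises of this group were the non-coding FER1L4 (1.48), the Groucho corepressor TLE2 (1.34), the kinase SBK1 (1.33) and the growth factor PDGFB (1.29).

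Below that level a larger rise was singled out after its values were seen. DHRS3, a reductase that turns retinal into retinol, was at 1.14 and 1.06 CPM with vehicle and at 7.64 and 7.46 CPM with ketamine, with a log2 fold change of 2.775 (SE 0.17, adjusted p = 4.86e-20, edgeR). That was the largest rise at a mean of 1 CPM or more. ABCC3, the leading rise in a list of NRF2 targets of which 9 of 23 rose and 9 fell (39.1% each, beside 26.8% and 32.5% of all genes), is an export pump for conjugated bile salts and drugs, and it went from 1.76 and 1.81 to 5.80 and 5.48 CPM (1.66, SE 0.13).

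Among genes at a mean of 5 CPM or more, the greatest fall was in POLR3G, a subunit of RNA polymerase III found mainly in undifferentiated cells (hg19, chr5:89767565-89810374). It stood at 8.26 and 7.22 CPM with vehicle and at 2.22 and 2.66 CPM with ketamine, a log2 fold change of -1.67 (SE 0.13, adjusted p = 8.78e-16, edgeR). HAS2, which makes the matrix sugar hyaluronan, fell from 9.37 and 9.95 to 3.31 and 3.42 CPM (-1.52, SE 0.11). SLC30A1, the transporter that carries zinc out of the cell, was at 13.4 and 13.3 CPM with vehicle and 5.45 and 5.10 CPM with ketamine (-1.34, SE 0.10). Genes with many more counts were among the falls too. ANXA1, an anti-inflammatory phospholipid-binding protein, dropped from 160.5 and 161.6 to 63.1 and 65.9 CPM (-1.32, SE 0.04). The chaperone genes CHORDC1 and HSP90AA1 belong to this set and are described with their pathway below. NLRP10 (-1.36), LINC01111 (-1.30), CCDC58 (-1.29), the pseudogene SBDSP1 (-1.28) and the ribosome assembly factor LTV1 (-1.26) fell as well. After the GC and length correction all of these fell still, but SLC30A1, ANXA1, LINC01111, CCDC58, SBDSP1 and LTV1 did so by less than 1. The corrected values were -1.01 for HAS2, -0.79 for ANXA1, -0.66 for LINC01111 and -0.76 for CCDC58.

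Genes of the type I interferon response rose more often than they fell. Of 58 genes chosen as interferon-stimulated, 52 were expressed well enough to be tested, of which 25 rose, 6 fell and 21 did not pass. Their median log2 fold change was 0.32, against -0.02 over all genes tested, and the rises made up 48.1% of the list beside 26.8% of all genes. After the GC and length correction 33 rose and 2 fell. Promoters of 5 members are shown so that their letters can be set beside the levels, as the 250 bases before the transcription start taken from RefSeq (build GRCh38.p14), written in the direction of transcription. The capitals mark matches to TTTCNNTTT, the core letters of the interferon response element, on either strand. The windows are chr12:112906712-112906961 (+) for OAS1, chr12:112938224-112938473 (+) for OAS3, chr1:27672193-27672442 (-) for IFI6, chr1:1013247-1013496 (+) for ISG15 and chr10:89392373-89392622 (+) for IFIT1.
OAS1: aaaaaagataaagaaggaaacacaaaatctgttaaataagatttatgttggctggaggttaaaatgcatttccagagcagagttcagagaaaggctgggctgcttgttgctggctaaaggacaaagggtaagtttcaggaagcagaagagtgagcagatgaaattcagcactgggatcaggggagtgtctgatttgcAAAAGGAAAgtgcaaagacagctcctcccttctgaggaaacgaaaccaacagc
OAS3: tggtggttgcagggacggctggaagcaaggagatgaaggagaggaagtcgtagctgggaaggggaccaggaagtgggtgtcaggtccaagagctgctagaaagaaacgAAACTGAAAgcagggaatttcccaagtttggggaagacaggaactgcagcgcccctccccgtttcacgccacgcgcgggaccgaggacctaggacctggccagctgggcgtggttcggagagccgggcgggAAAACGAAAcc
IFI6: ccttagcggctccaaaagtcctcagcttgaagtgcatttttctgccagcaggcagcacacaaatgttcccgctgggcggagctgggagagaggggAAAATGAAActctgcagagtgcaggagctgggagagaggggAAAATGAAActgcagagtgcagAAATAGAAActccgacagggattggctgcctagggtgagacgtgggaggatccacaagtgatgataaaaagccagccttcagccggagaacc
ISG15: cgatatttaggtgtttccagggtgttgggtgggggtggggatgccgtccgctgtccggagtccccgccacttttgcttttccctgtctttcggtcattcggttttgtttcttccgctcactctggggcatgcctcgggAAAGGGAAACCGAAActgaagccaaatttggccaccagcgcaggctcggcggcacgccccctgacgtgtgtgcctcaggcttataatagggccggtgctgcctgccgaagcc
IFIT1: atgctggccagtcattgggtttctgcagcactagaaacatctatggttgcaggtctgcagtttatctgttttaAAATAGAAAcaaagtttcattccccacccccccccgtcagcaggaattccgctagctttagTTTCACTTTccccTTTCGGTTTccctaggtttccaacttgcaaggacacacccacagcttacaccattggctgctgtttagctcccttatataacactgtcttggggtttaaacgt

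The core letters occurred in 17 of the 19 promoters on hand for the list members that rose (89.5%). Over the tested members of the list it was 33 of 42 (78.6%), and over all tested genes with a promoter 854 of 12139 (7.04%), in the same window of 250 bases before to 50 after the start. Among all genes that rose by at least 1, the share was 6.57%. These are matches of letters and not shown to be bound sites, and a stretch may match more than 1 of the motifs searched here.

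OAS1, which makes the 2-5A messenger that activates RNase L, rose steeply from a low level. It was at 0.327 and 0.302 CPM with vehicle, that is 20 and 18 counts, and at 1.44 and 1.265 CPM with ketamine, that is 123 and 105 counts. The log2 fold change was 2.10 (SE 0.31, adjusted p = 4.9e-08, edgeR). BST2, a tether that holds virus particles at the cell surface, had 6 and 10 counts with vehicle and 51 and 63 with ketamine (2.34, SE 0.47, adjusted p = 2.81e-05, edgeR). MX2, a GTPase that blocks the entry of viral genomes into the nucleus, had 16 and 17 counts with vehicle and 90 in each ketamine library (1.96, SE 0.36). MX1, its cytoplasmic relative, was at 1.41 and 1.85 CPM with vehicle and at 2.84 and 3.76 CPM with ketamine (1.02, SE 0.18). IFITM1, which hinders viral membrane fusion, went from 1.37 and 1.06 to 3.17 and 2.41 CPM (1.20, SE 0.29). OAS2 had 10 counts in each vehicle library and 20 and 15 with ketamine, a difference of 0.32 that was not detectable at this depth (adjusted p = 0.678, edgeR).

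OAS3 rose from 8.53 and 8.90 to 16.2 and 15.8 CPM (log2 fold change 0.88, SE 0.08), and IFI6 from 12.3 and 11.9 to 20.7 and 22.5 CPM (0.83, SE 0.07). ISG15, a ubiquitin-like modifier, was at 27.9 and 28.2 CPM with vehicle and 42.1 and 42.9 CPM with ketamine (0.60, SE 0.05, corrected 0.32). IFIT1, which binds viral RNA caps, was at 2.75 and 3.94 CPM with vehicle and 5.19 and 4.87 CPM with ketamine (0.59, SE 0.13, adjusted p = 0.00017, edgeR, corrected 0.91). Its vehicle libraries were far apart, and without vehicle replicate 1 it was 0.35 with an adjusted p of 0.0517. IFIT5 went the other way (-0.57), and its call was lost after the GC and length correction (-0.11, adjusted p = 0.23, edgeR).

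**Figure D2:**
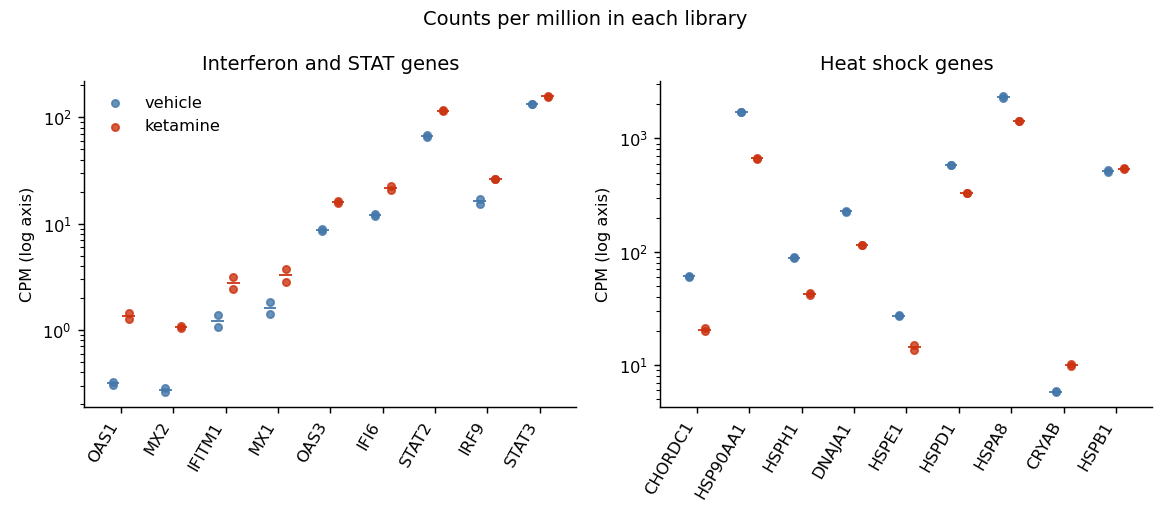
Level of interferon and STAT genes (left) and heat shock genes (right) in CPM on a log axis, with a point for each of the 2 vehicle (blue) and 2 ketamine (red) libraries and a bar at the group mean. In the left panel every gene is higher in both ketamine libraries, as with OAS1 at 1.44 and 1.265 against 0.327 and 0.302 CPM, and in the right panel all but CRYAB and HSPB1 are lower.

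The signalling genes that lead to this response changed in both directions. In a list of the JAK, STAT, IRF and SOCS families, 41 were tested, with 20 higher and 15 lower (48.8% and 36.6%, beside 26.8% and 32.5% of all genes) and a median of 0.11. After correction 18 were higher and 6 lower. STAT2, the interferon-specific member, rose from 64.8 and 68.2 to 113.8 and 117.9 CPM (log2 fold change 0.80, SE 0.04, adjusted p = 2.44e-24, edgeR). IRF9, its DNA-binding partner, rose from 17.1 and 15.4 to 26.5 and 26.2 CPM (0.70, SE 0.06), and IRF7, which amplifies interferon production, from 30.2 and 30.0 to 47.4 and 45.3 CPM (0.62, SE 0.05, corrected 0.24). STAT3, the STAT of interleukin-6 signalling (hg19, chr17:40465342-40540558), was at 133.2 and 133.6 CPM with vehicle and 155.5 and 159.3 CPM with ketamine. That was a rise of 0.24 (SE 0.03, adjusted p = 4.45e-10, edgeR), in which the libraries of each group were nearly level with each other. Among the kinases, JAK1 fell by 0.32, JAK2 was 0.58 lower with its call lost after correction (-0.12, adjusted p = 0.36, edgeR), and JAK3 rose by 0.97. Of the feedback inhibitors, SOCS3 rose by 0.37, or 0.11 when corrected, and SOCS1 by 0.98 from under 1 CPM, which no longer passed when corrected (0.58, adjusted p = 0.061, edgeR). The phosphatase PTPN11, which acts on the same cytokine receptors, fell from 317.7 and 323.4 to 174 and 175 CPM (-0.88, SE 0.03).

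Complement and antigen presentation genes leaned towards rises. Of 14 complement genes tested 8 rose and 3 fell, with a median of 0.57, beside 26.8% of all genes higher and 32.5% lower and an all-gene median of -0.02. After correction 6 rose and 1 fell with a median of 0.45. Next to C1R these included C1S, the protease it activates (log2 fold change 1.05), SERPING1, the inhibitor of both (1.02), and C1RL (0.87). C1R and C1RL share 14.3% of the exon bases of C1R. Of 20 genes of the MHC class I pathway 12 rose and 2 fell, set against those same shares of all genes, with a median of 0.36, and 14 rose after correction. NLRC5, which switches on the class I genes, went from 3.53 and 3.29 to 7.05 and 8.07 CPM (1.15, SE 0.11). The immunoproteasome subunits PSMB9 (0.91) and PSMB8 (0.78) and the peptide transporter TAP1 (0.67) rose with it. Of 26 inflammatory genes tested 6 rose and 3 fell, a share of rises no higher than that over all genes, and after correction 2 rose and 3 fell. IL7R, a cytokine receptor chain, fell from 26.4 and 25.7 to 12.9 and 11.8 CPM (-1.08, SE 0.07).

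**Figure D3:**
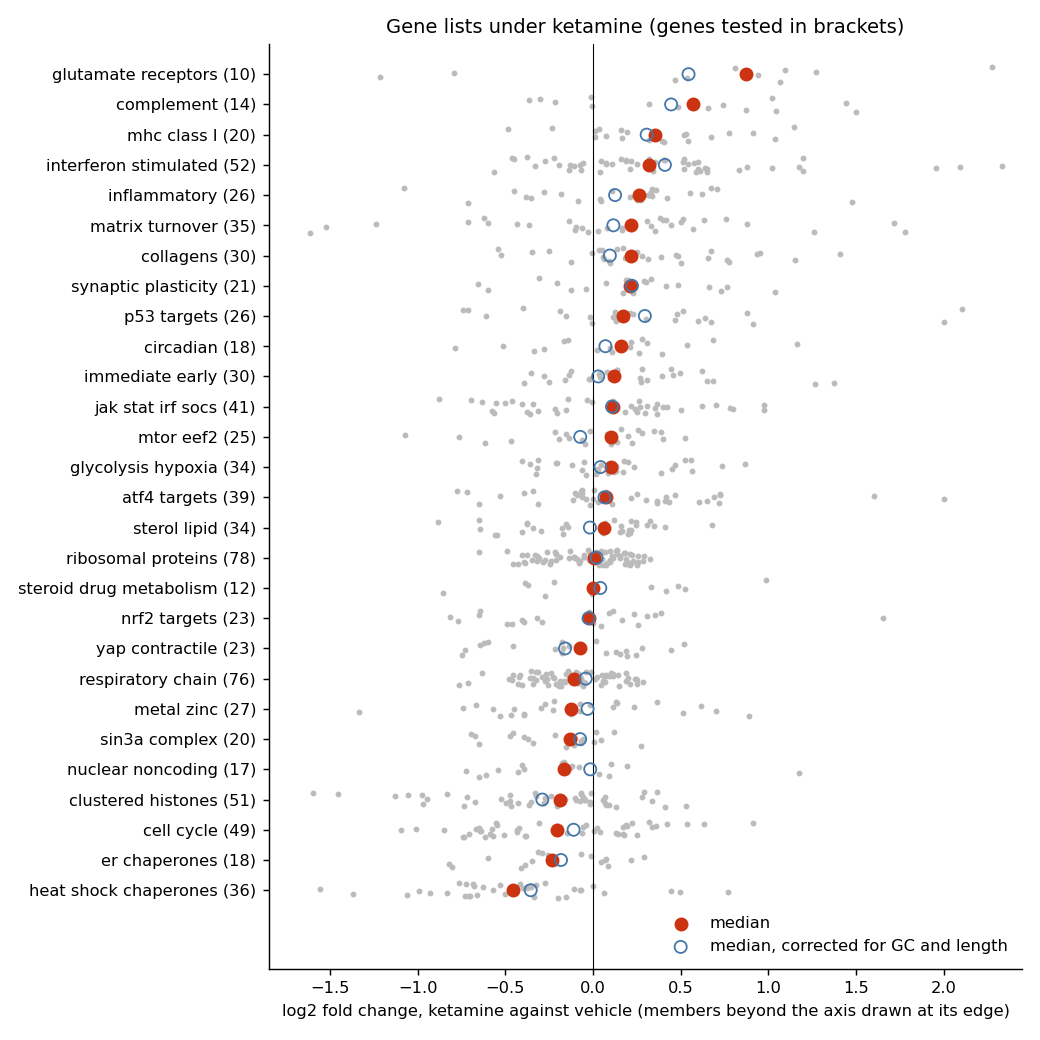
Log2 fold change of ketamine against vehicle for the tested members of 28 gene lists (gray points), with the list median as counted (filled red) and after correction for GC and length (open blue). The number of tested members stands in brackets, and the lists are ordered from glutamate receptors with a median of 0.87 to heat shock chaperones with -0.46.

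The heat shock chaperones fell more uniformly than any other list examined, as a share of members. Of 36 tested 29 fell and 2 rose, that is 80.6% lower beside 32.5% of all genes, with a median of -0.46. After the GC and length correction 31 fell and 1 rose, with a median of -0.36. The promoters of CHORDC1, at chr11:90223050-90223299 (-), and of HSPA8, at chr11:123062137-123062386 (-), are shown to set beside these levels, from the same source and build. Their capitals mark GAANNTTC, which reads the same on both strands and pairs the units of a heat shock element.
CHORDC1: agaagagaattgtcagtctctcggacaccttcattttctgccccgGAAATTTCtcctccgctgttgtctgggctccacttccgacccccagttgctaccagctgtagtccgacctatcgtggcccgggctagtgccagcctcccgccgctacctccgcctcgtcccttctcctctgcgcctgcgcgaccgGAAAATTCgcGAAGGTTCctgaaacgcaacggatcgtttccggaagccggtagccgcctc
HSPA8: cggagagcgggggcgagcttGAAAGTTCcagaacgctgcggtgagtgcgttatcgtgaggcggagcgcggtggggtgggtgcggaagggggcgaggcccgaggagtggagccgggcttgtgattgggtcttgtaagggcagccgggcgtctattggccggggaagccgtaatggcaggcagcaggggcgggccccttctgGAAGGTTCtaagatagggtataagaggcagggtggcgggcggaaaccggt

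That pair of units was in 6 of 27 promoters of the members that fell (22.2%), in 11 of 33 of the tested list (33.3%) and in 4.73% of all promoters. The STAT site TTCNNNGAA, searched on both strands, lay in 6.3% of all promoters, in 5.11% for genes that rose by at least 1 and in 10.1% for those that fell by as much. In the tested interferon list it lay in 11 of 42 (26.2%), and in 6 of 19 of the members that rose (31.6%). The C/EBP-ATF element TGATGCAA, also searched on both strands, was in 0.486% of all promoters and in 2 of 14 of the ATF4 targets that rose (14.3%).

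HSP90AA1, the inducible form of the HSP90 chaperone, carried the best-supported fall of the list. It was at 1717 and 1726 CPM with vehicle and at 662.4 and 668.1 CPM with ketamine, a log2 fold change of -1.37 (SE 0.02, adjusted p = 4.44e-43, edgeR). CHORDC1, a partner of HSP90 that is itself induced by heat, fell from 60.2 and 60.7 to 21.1 and 19.9 CPM (-1.56, SE 0.05, corrected -1.02). HSPH1, a nucleotide exchange factor for HSP70, went from 88.0 and 89.1 to 43.1 and 41.7 CPM (-1.06, corrected -0.61), and DNAJA1, an HSP40 that hands proteins to HSP70, from 224.2 and 230 to 114.3 and 113.7 CPM (-0.99, corrected -0.61). HSPA8, the constitutive HSP70, fell from 2293 and 2376 to 1430 and 1438 CPM (-0.70, SE 0.02). In each of these genes the libraries of a group differed by far less than the groups did. In the other direction, CRYAB rose from 5.79 and 5.87 to 9.75 and 10.1 CPM (0.77, SE 0.09), and HSPB1 differed by 0.06 (adjusted p = 0.0459, edgeR), a direction that turned to -0.24 after correction. HSPA1A fell by 0.20, or 0.44 when corrected, although its reads cannot be separated with certainty from those of its near-identical copy HSPA1B.

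Chaperones of the endoplasmic reticulum moved less, with 10 of 18 lower, 2 higher (55.6% and 11.1%, beside 32.5% and 26.8% of all genes) and a median of -0.23. Targets of ATF4, which answers amino acid shortage, had 19 of 39 higher and 13 lower (48.7% and 33.3%, beside 26.8% and 32.5% of all genes) with a median of 0.07. The stress hormone GDF15 rose from 1.55 and 1.86 to 6.62 and 7.06 CPM (log2 fold change 2.00, SE 0.13, adjusted p = 1.53e-18, edgeR), and NUPR1 rose by 1.60 from under 1 CPM. Targets of p53 had 14 of 26 higher and 6 lower (53.9% and 23.1%, beside 26.8% and 32.5% of all genes), and 15 higher and 5 lower after correction. CDKN1A, the p21 brake on the cell cycle, was at 116.3 and 115.2 CPM with vehicle and 216 and 220.1 CPM with ketamine (0.91, SE 0.03), and FDXR, a mitochondrial reductase, rose by 0.88.

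Cell cycle genes fell in 28 of 49 cases and rose in 16 (57.1% and 32.7%, beside 32.5% and 26.8% of all genes), with a median of -0.20 that was -0.11 after correction. The mitotic kinase TTK went from 33.5 and 34.1 to 15.5 and 16.1 CPM (log2 fold change -1.10, SE 0.06, corrected -0.73), and the kinetochore protein CENPF from 164.4 and 174.9 to 84.2 and 84.4 CPM (-1.01, SE 0.04, corrected -0.63). The spindle motor KIF11 fell by 0.85, corrected -0.49, and the cyclin CCND1 by 0.57, while E2F1, the factor that opens S phase, rose by 0.63, or 0.35 when corrected. In bulk RNA, fewer cells of a kind and less of the transcript in each cell cannot be told apart.

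Of 24 glutamate receptor genes 10 could be tested, of which 6 rose and 1 fell with a median of 0.87, beside 26.8% and 32.5% of all genes and an all-gene median of -0.02. After correction 3 rose and 1 fell, with a median of 0.545. GRIK4, a kainate receptor subunit, was at 1.23 and 1.66 CPM with vehicle and 3.53 and 3.46 CPM with ketamine (log2 fold change 1.27, SE 0.17, adjusted p = 4.71e-09, edgeR). Of the NMDA receptor subunits, GRIN3B rose by 0.94, or 0.50 when corrected, and GRIN2D by 0.54 with its call lost after correction (0.09, adjusted p = 0.58, edgeR). GRIN3A, with 41 and 31 counts against 22 and 21, was lower by 1.22 (adjusted p = 0.0226, edgeR). GRM2, a receptor that curbs glutamate release, rose by 0.81 at about 1 CPM. The calls of GRIN3A and GRM2 were each lost when 1 library was left out.

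Among genes of synaptic plasticity, 10 of 21 rose and 4 fell, beside 26.8% and 32.5% of all genes, and after correction 7 rose and 4 fell. BDNF, the neurotrophin linked to antidepressant action, was at 30.2 and 29.2 CPM with vehicle and at 34.5 and 32.5 CPM with ketamine. The log2 fold change of BDNF was 0.17 (SE 0.06, adjusted p = 0.00566, edgeR, corrected 0.29), its call was lost when 1 library was left out, and 12.8% of its exon bases lie opposite an antisense gene. DLG4, the scaffold PSD-95, rose by 0.66, or 0.43 when corrected, from 16.3 and 17.5 to 26.6 and 26.8 CPM. SYN1, which coats synaptic vesicles, had 30 and 25 counts against 53 and 42 in deeper libraries. Its difference of 0.31 was not called (adjusted p = 0.501, edgeR) and was 0.05 when corrected. In the list around mTOR and translation elongation, 14 of 25 rose and 8 fell, beside 26.8% and 32.5% of all genes, and after correction 6 rose and 13 fell, with the median turning from 0.10 to -0.07. EEF2, the elongation factor, was at 3685 and 3615 CPM with vehicle and 4408 and 4454 CPM with ketamine (0.28), but the difference was 0.01 after correction (adjusted p = 0.49, edgeR). Its kinase EEF2K rose by 0.39, or 0.35 when corrected. The cap-binding protein EIF4E fell from 62.7 and 61.9 to 28.2 and 30.9 CPM (-1.07, SE 0.05, corrected -0.64), and the kinase RPS6KB1 fell by 0.77, or 0.35 when corrected.

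SIN3A, the corepressor that recruits histone deacetylases, was at 100 and 104.4 CPM with vehicle and 90.9 and 92.9 CPM with ketamine. Its log2 fold change of -0.15 (SE 0.04, adjusted p = 0.000274, edgeR) turned to 0.05 after the correction and was then not called (adjusted p = 0.25, edgeR). In the list of the SIN3A complex 11 of 20 fell and 2 rose, beside 32.5% and 26.8% of all genes, with a median of -0.13. After correction 8 fell and 4 rose, with a median of -0.07.

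Collagen genes rose in 17 of 30 cases and fell in 3 (56.7% and 10.0%, beside 26.8% and 32.5% of all genes), with a median of 0.22. After correction 14 rose and 7 fell, with a median of 0.10. COL9A3 went from 5.31 and 4.18 to 8.92 and 9.47 CPM (log2 fold change 0.95, SE 0.11, corrected 0.61). Genes that build or degrade matrix rose in 18 of 35 cases and fell in 9 (51.4% and 25.7%), and after correction in 15 and 12. The gelatinase MMP2 was at 2.31 and 2.03 CPM with vehicle and at 7.73 and 7.16 CPM with ketamine (1.78, SE 0.14, adjusted p = 8.62e-16, edgeR), and MMP11 rose by 1.26, whereas HAS2, named above, fell. Immediate early genes rose in 13 of 30 cases and fell in 5 (43.3% and 16.7%, beside the same shares of all genes), and after correction in 11 and 6. They included FOS (1.27), at 0.85 and 1.39 against 2.34 and 3.06 CPM, and FOSB (1.37). In energy metabolism, 41 of 76 respiratory chain genes fell and 16 rose by small amounts (53.9% and 21.1%, beside 32.5% and 26.8% of all genes), with a median of -0.11, while 16 of 34 genes of glycolysis and hypoxia rose and 9 fell (47.1% and 26.5%). After correction 30 respiratory chain genes fell and 16 rose, with a median of -0.04, and 12 genes of the glycolysis list rose and 12 fell. NDRG1 of that list went from 129.6 and 127 to 233.9 and 233.7 CPM (0.87, SE 0.03), and CA9 rose by 0.74, with 35.7% of its exon bases opposite ARHGEF39. Ribosomal protein genes were evenly split, with 33 of 78 higher and 32 lower (42.3% and 41.0%, beside 26.8% and 32.5% of all genes). In the metal and zinc list 12 of 27 fell and 4 rose (44.4% and 14.8%, beside 32.5% and 26.8% of all genes), with 11 and 2 after correction. The metallothionein MT1E went from 77.0 and 73.6 to 50.6 and 53.6 CPM (-0.53, SE 0.04). The imprinted non-coding RNA H19 rose by 1.17. It belongs to a list of 17 nuclear non-coding RNAs in which 2 rose and 9 fell (11.8% and 52.9%, beside 26.8% and 32.5% of all genes). After correction 5 of that list rose and 6 fell.

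To see where ketamine differed from its metabolites, the libraries were contrasted directly at the same dose and time. Each of 3 contrasts, with (2R,6R)-HNK, (2S,6S)-HNK and E2 alone, was tested over all genes and the p-values were adjusted over all of them together. Against (2R,6R)-HNK, 3614 genes were higher with ketamine (22.6%) and 3584 lower (22.4%). Against (2S,6S)-HNK, 3471 were higher (21.7%) and 3822 lower (23.9%), and against E2 it was 2691 (16.8%) and 3049 (19.1%). The 3 contrasts share the ketamine libraries, so their counts are given side by side only. Of the 413 genes that ketamine raised by at least 1, 126 were higher with ketamine than with (2R,6R)-HNK and 1 was lower, whereas 53 were higher and 66 lower than with (2S,6S)-HNK. Because these 413 were picked for their height in the same ketamine libraries, a lean to the ketamine side is built into such counts.

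DHRS3 and MMP2 stood higher with ketamine than with either metabolite. DHRS3 exceeded (2R,6R)-HNK by 1.71 on the log2 scale (SE 0.15, adjusted p = 5.966e-14, edgeR) and (2S,6S)-HNK by 1.41 (SE 0.15, adjusted p = 1.699e-11, edgeR). For MMP2 the differences were 0.80 (SE 0.13) and 1.27 (SE 0.13), and for CPZ 0.26, or 0.47 when corrected, and 0.49. BDNF was higher than with (2R,6R)-HNK by 0.65 and than with (2S,6S)-HNK by 0.44. POLR3G was lower with ketamine than with either form, by 0.69 and 0.51.

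Other genes differed by the test from a single mirror-image form, or lay between both. APOE was higher than with (2R,6R)-HNK by 0.45, or 0.69 when corrected. Its difference from (2S,6S)-HNK was -0.01 with a 95% interval of -0.24 to 0.22, and 0.16 when corrected. YPEL1 was higher than with (2R,6R)-HNK by 0.78 and differed by -0.10 from (2S,6S)-HNK, with an interval of -0.26 to 0.06. CDK18 was above (2R,6R)-HNK by 0.33 and below (2S,6S)-HNK by 0.99. HAS2 was 0.78 lower than with (2S,6S)-HNK, and its difference from (2R,6R)-HNK was -0.06 with an interval of -0.34 to 0.21 (corrected -0.19). Of the metal and zinc list, 9 of 27 members were lower with ketamine than with (2R,6R)-HNK and 4 higher, beside 22.4% and 22.6% of all genes, and 10 were higher than with (2S,6S)-HNK and 3 lower, beside 21.7% and 23.9%. SLC30A1 of that list was 1.23 lower with ketamine than with (2R,6R)-HNK and 1.12 higher than with (2S,6S)-HNK. MT1E followed the same order, at 1.17 below (2R,6R)-HNK and 1.27 above (2S,6S)-HNK.

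In the interferon list 13 of 52 members were higher with ketamine than with (2R,6R)-HNK and 12 lower, beside 22.6% and 22.4% of all genes, with a median difference of 0.01 beside 0.02 over all genes. Against (2S,6S)-HNK 19 were higher and 9 lower, beside 21.7% and 23.9%, with a median of 0.15 beside 0.003. Against E2 28 were higher and 3 lower, beside 16.8% and 19.1%, with a median of 0.27. MX1 was lower with ketamine than with (2R,6R)-HNK by 0.79 and than with (2S,6S)-HNK by 0.40 (adjusted p = 0.03314, edgeR), IFITM1 was lower than with (2S,6S)-HNK by 1.62, and IFI6 was lower than with (2S,6S)-HNK by 0.38. The difference of IFI6 from (2R,6R)-HNK, -0.24, was no longer called after the GC and length correction (-0.05, adjusted p = 0.5541, edgeR). BST2 was higher with ketamine than with (2R,6R)-HNK by 1.10. OAS1 was not separated from either form, with intervals of -0.80 to 0.31 and of -0.21 to 0.97. Its corrected differences were -0.44 from (2R,6R)-HNK and 0.25 from (2S,6S)-HNK. STAT2 was 0.22 above (2R,6R)-HNK and 0.14 below (2S,6S)-HNK. STAT3 was 0.27 below (2S,6S)-HNK, and its difference of 0.07 from (2R,6R)-HNK (adjusted p = 0.04924, edgeR) became -0.01 after correction.

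Of the heat shock list, 19 of 36 members were lower with ketamine than with (2R,6R)-HNK and 9 higher, beside 22.4% and 22.6% of all genes, with a median difference of -0.105 beside 0.02. Against (2S,6S)-HNK 18 were higher and 6 lower, beside 21.7% and 23.9% of all genes, with a median of 0.14 beside 0.003. HSPH1 lay 0.13 below (2R,6R)-HNK (corrected -0.32) and 0.37 above (2S,6S)-HNK (corrected 0.225), and HSPA8 0.16 below and 0.21 above. HSP90AA1 was lower with ketamine than with either form, by 0.24 and 0.07 (the latter -0.13 when corrected). CHORDC1 was 0.25 lower than with (2R,6R)-HNK (corrected -0.47) and not separated from (2S,6S)-HNK (0.13, interval -0.01 to 0.27, corrected -0.02). EEF2 was 0.35 lower than with (2S,6S)-HNK, corrected -0.19, and the difference of -0.19 from (2R,6R)-HNK was -0.01 after correction.

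**Figure D4:**
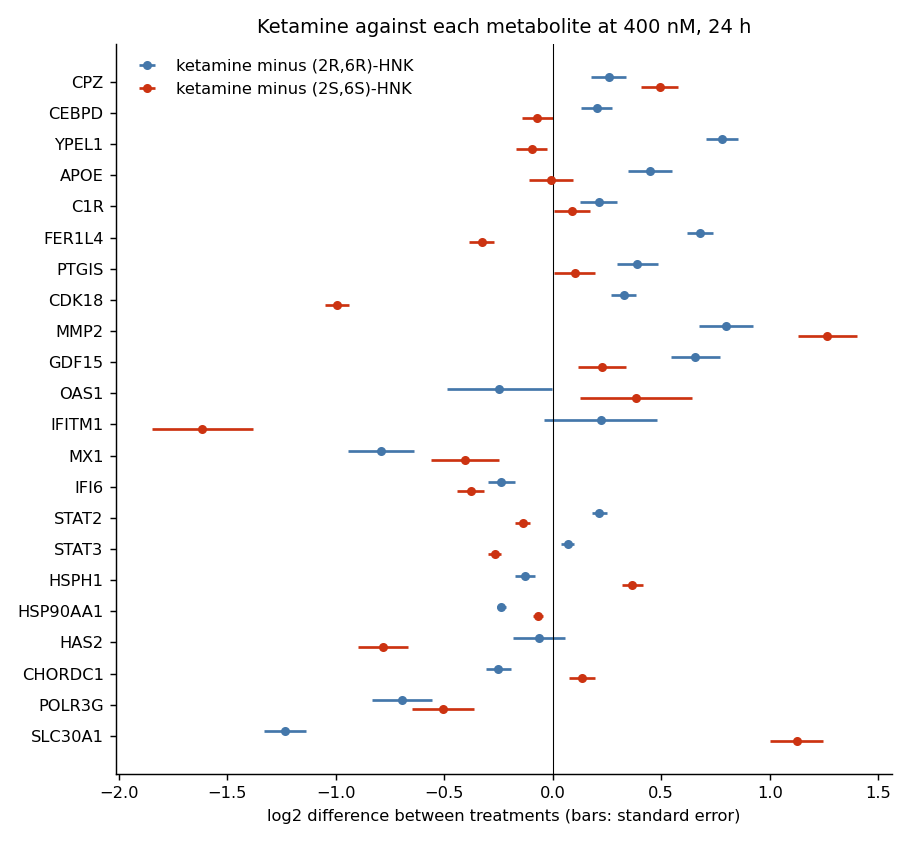
Difference in log2 level between ketamine and (2R,6R)-HNK (blue) and between ketamine and (2S,6S)-HNK (red) for 22 genes, with bars of 1 standard error. Genes to the right of 0 were higher with ketamine, and SLC30A1 lies at -1.23 and 1.12 on opposite sides of the line.

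The response was also read in cells that received E2, where E2 with ketamine was set against E2 alone. That comparison takes its difference from none of the 4 libraries described above, which enter only the shared scaling and fit. It gave 3969 genes higher (24.8%) and 4082 lower (25.5%). Of the 413 genes raised by at least 1 without E2, 319 had the same sign with E2, 114 were called in the same direction and 1 in the opposite one. Of the 157 that fell, 128 had the same sign, 63 were called in the same direction and 2 in the opposite one. The difference between both responses was tested as an interaction, into which the vehicle libraries enter, and 3915 of all genes (24.5%) had a higher ketamine difference with E2 and 2094 (13.1%) a lower one. It was called for 193 of the 413 and 94 of the 157, which were chosen by a contrast that enters it. Across genes, which share their libraries, Pearson's r between both responses was 0.35, and 0.20 after the GC and length correction.

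Interferon genes rose with ketamine in the presence of E2 too, with 21 of 52 higher, 5 lower (all genes 24.8% and 25.5%) and a median of 0.18 beside -0.02 over all genes. After correction 28 were higher and 2 lower, with a median of 0.28, beside 2871 higher and 2773 lower of all 16004 genes. OAS1 rose by 1.17 there, BST2 by 1.80, IFITM1 by 1.15, OAS3 by 0.99, IFI6 by 0.93 and ISG15 by 0.92, the last 0.59 when corrected. MX1 rose by 1.66, more than without E2 by the interaction test (adjusted p = 0.04, edgeR), and so did ISG15 (adjusted p = 0.00011). STAT2 rose by 0.31, less than without E2, and for STAT3 the difference was 0.06 (adjusted p = 0.06944, edgeR), which became 0.14 and was called after the GC and length correction (adjusted p = 2.371e-06, edgeR). MHC class I genes rose in 14 of 20 cases and fell in 2, beside 24.8% and 25.5% of all genes, with a median of 0.37.

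Heat shock genes were lower with ketamine in the presence of E2 in 18 of 36 cases and higher in 4, beside 25.5% and 24.8% of all genes, with a median of -0.20. After correction 22 were lower and 2 higher, with a median of -0.11, beside 2773 lower and 2871 higher of all 16004 genes. By the interaction 29 of the 36 had a higher ketamine difference with E2 and 1 a lower one, beside 24.5% and 13.1% of all genes. HSP90AA1 fell by 0.44 on top of E2, which by itself left it at a mean of 820.4 CPM. CHORDC1, at 25.7 CPM with E2, was lower by 0.30, and its call was lost after the GC and length correction (-0.02, adjusted p = 0.8348, edgeR). Other lists ran differently with E2. Respiratory chain genes were higher in 47 of 76 cases and lower in 11 (median 0.16), and 31 of 39 ATF4 targets were higher and 2 lower (median 0.30), beside 24.8% and 25.5% of all genes and an all-gene median of -0.02. MT1E rose by 1.11 and SLC30A1 by 0.63 with E2, against their falls of 0.53 and 1.34 without it. Collagen genes were lower in 11 of 30 cases and higher in 3, beside 25.5% and 24.8%.

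**Figure D5:**
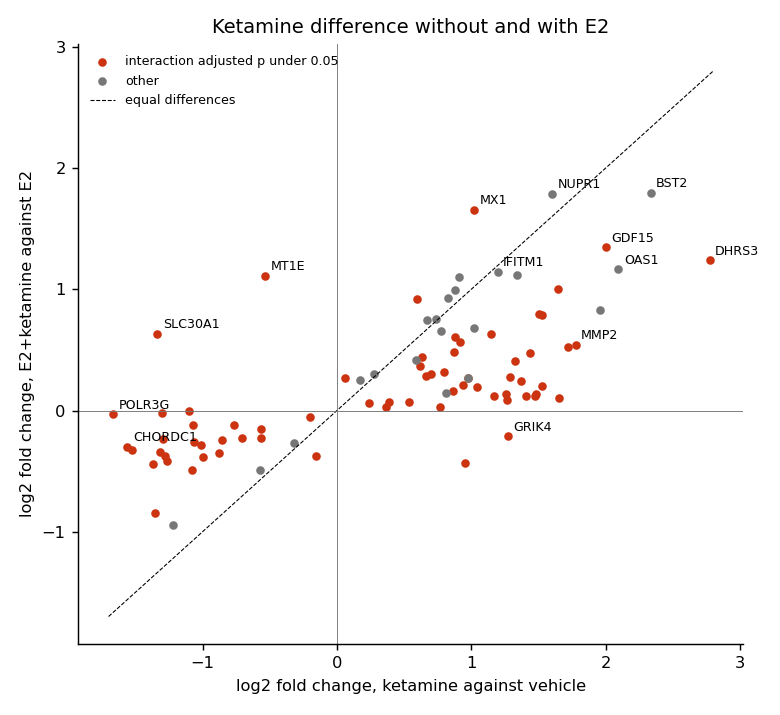
Log2 fold change of E2 and ketamine against E2 (vertical axis) plotted against that of ketamine against vehicle (horizontal axis). Shown are the 89 of the 91 named genes that were called for ketamine against vehicle. Genes are in red where the interaction had an adjusted p under 0.05 (edgeR), and the dashed line marks equal differences. MT1E at 1.11 and SLC30A1 at 0.63 sit above 0 with E2 and to the left of 0 without it, and DHRS3 lies farthest right at 2.775.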

How the data were processed

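The authors prepared libraries from total RNA of HMC3 cells with an amplifying kit (NuGEN Ovation RNA-seq system v2) and sequenced them on an Illumina HiSeq instrument. According to the submitters' processing notes, reads were aligned to hg19 with TopHat2 2.0.14 and Bowtie2 2.2.6 and assigned to genes with featureCounts 1.4.6. The authors deposited raw counts for 25370 genes, which held even numbers in 65.8% of values from 1 to 9 and in 49.9% of large values. Some read pairs may thus have been counted as 2, which was not tested, and a low count may then stand for fewer fragments than its number. From these counts, filterByExpr kept 16004 genes, TMM scaled the 16 libraries, and edgeR 4.0.16 (R 4.3.3, limma 3.58.1) fitted 1 mean per treatment by quasi-likelihood with 8 residual degrees of freedom. P-values were adjusted by Benjamini-Hochberg over all genes, and over the 3 direct contrasts together. CPM (counts per 1000000) are scaled by TMM, but marker sums use raw library totals. The correction for GC content and exon length used a loess fit (span 0.5) in each library on exon values from GENCODE gene models on hg19, which 96.0% of tested genes had. The fit was tested on simulated data, where it recovered 100% of 200 genes changed by 1.5 on the log2 scale with 1 false call among 15701 genes. Intervals are 95% with 8 degrees of freedom.

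The named genes are the 12 largest rises and falls among called genes averaging 5 CPM or more with groups that do not overlap (of which 1 fall is not reported here), the genes the study names, and up to 4 strongly changed members per list. Other genes were picked after their values were seen. All members and lists were chosen with earlier results of these data known. Alternatives included DESeq2 1.42.0, other scalings and filters, thinned counts, left-out libraries and a replicate block. Libraries with the same number did not deviate together. Promoters come from RefSeq (GRCh38.p14).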

Additional observations from a re-analysis of the deposited data

Results flagged for a closer look

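For 23 of the genes described, the ketamine response without E2 and with E2 differed by more than 1 on the log2 scale in the interaction test (edgeR, adjusted p under 0.05). The values that follow are the response with E2 minus the response without it. All come from contrasts in which both vehicle libraries and both E2 libraries take part. Many of these genes were named for a large ketamine difference without E2, which enters the interaction with a minus sign. A value opposite in sign to that difference is thus partly built in. Of all genes tested, 24.5% had a higher and 13.1% a lower ketamine difference with E2, at any size. The share beyond 1 was not computed.

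Rises that were smaller with E2, or gave way to a fall, included DHRS3 at -1.536, ABCC3 at -1.552, GRIK4 at -1.488, COL9A3 at -1.382, PTGIS at -1.353, FER1L4 at -1.345 and YPEL1 at -1.321. COL8A2 stood at -1.29, MMP2 at -1.237, CPZ at -1.196, FOS at -1.177, FOSB at -1.128, MMP11 at -1.122, H19 at -1.05 and PDGFB at -1.012.

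Falls that were smaller with E2, or turned to a rise, included SLC30A1 at 1.97, MT1E at 1.646, POLR3G at 1.635, LINC01111 at 1.282, CHORDC1 at 1.263, HAS2 at 1.199, TTK at 1.09 and CCDC58 at 1.055.

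After the GC and length correction, 6 of these differences were under 1 in size, with CHORDC1 at 0.998, HAS2 at 0.893, TTK at 0.910, PDGFB at -0.987, LINC01111 at 0.820 and CCDC58 at 0.681.

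E2 alone lay on the same side of vehicle as ketamine in every gene flagged here. Its log2 fold change against vehicle was 1.31 for ABCC3, 1.08 for PTGIS, 1.08 for COL8A2, 1.09 for PDGFB and 1.20 for FOSB. Among the falls it was -1.17 for LINC01111, -1.24 for CHORDC1, -1.19 for CCDC58, -1.13 for HAS2, -1.10 for TTK and -1.07 for POLR3G. The smallest rise with E2 was 0.26 for H19, and the smallest fall was -0.365 for MT1E. The interaction therefore also holds the difference between vehicle and E2, and the part of the vehicle libraries in it was not tested.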

How the results depend on the processing

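Of 91 named genes, 89 kept their direction in those of the 16 alternative settings that gave them a value and 78 passed the threshold in each of these, beside 89 in the analysis reported. BST2, OAS2 and GRIN3A had no value with at least 10 counts in every library. The exceptions in direction were SIN3A, at 0.04577 with the GC and length correction and at 0.04577 with that correction and a replicate block, and HSPB1, at -0.2369 and -0.237. List medians turned for mTOR and elongation (-0.07295 with the correction, -0.07276 with the block added), for sterol and lipid genes (-0.01772 and -0.01774) and, under upper-quartile scaling, for YAP and contractile genes (0.007985). Apart from the correction's own removal of the GC trend, the cause was not tested.

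Genes lower by at least 1 numbered 157, and 96 with at least 10 counts in every library, 98 under upper-quartile scaling, 67 with the correction, 66 with the correction and the block, and 88 by DESeq2 on the 4 libraries. Falls in the interferon list numbered 6, and 2 with the correction, with or without the block. The median of that list, 0.32, was 0.2268 with at least 10 counts, 0.4029 under upper-quartile scaling, 0.4102 with the correction, 0.4101 with the block added and 0.2684 on thinned counts. Leaving out a library moved it between 0.2477 and 0.3563. Rises in the heat shock list numbered 2, and 1 under the block, the correction, both together and DESeq2 on all libraries, with 1 to 2 when a library was left out. The heat shock median of -0.46 was -0.3746 under upper-quartile scaling, -0.4296 under RLE scaling, -0.3555 and -0.355 with the correction without and with the block, -0.4288 by DESeq2 on all libraries and -0.4269 on 4, and ran from -0.5093 to -0.4565 with a library left out.

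Without the correction, the replicate block gave 4275 higher and 5187 lower genes. Deviations of same-numbered libraries correlated at -0.0034 over all genes and 0.026 over the 10701 better covered ones, so no pairing by number was seen. Where libraries of a group differ only technically, such a check could not show a pairing, so it is not excluded. Without vehicle replicate 1 the call of IFIT1 was lost, and BDNF, GRM2, GRIN3A and HSPB1 each lost theirs without some library. Depth limits genes such as OAS2 and SYN1, where few counts carry the comparison.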
